A study of Homo sapiens with 9 samples.

Results

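Genes of glycolysis, lactate handling and glucose transport were followed in 9 RNA-seq libraries labelled HepG2, an established human line of hepatic tumour origin. The 37 genes were chosen by name: 5 glucose transporters, the enzymes from hexokinase to lactate dehydrogenase, the PFKFB enzymes that set the level of fructose 2,6-bisphosphate, the lactate-carrying monocarboxylate transporters SLC16A1 and SLC16A3, pyruvate dehydrogenase subunits and kinases, and PCK2, FBP1 and TIGAR. The choice was made with earlier results of these data known. All 37 were in the table of 58174 genes, each listed once. The libraries form 3 groups of 3. The control has the genotype label WT and is written HepG2-pLVX in the protocol, a name that points to cells carrying the empty lentiviral plasmid. The second group overexpressed NFE2L1, a cap'n'collar transcription factor anchored in the endoplasmic reticulum, and the third overexpressed NFE2L1DC, which the protocol writes with a delta in place of the D, as is common for a protein lacking its C-terminal end. How much was removed, which promoter drives the transgenes and how many clones make up each line were not stated. All cells grew in high glucose DMEM with fetal bovine serum. By its title, the series asks what NFE2L1 does beyond its role in transcription.

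The label HepG2 was checked against 10 hepatocyte markers. ALB, APOB, SERPINA1, FGB, TTR and FOXA2 were listed at 0 TPM in all 9 libraries, and no value of AFP, APOA1, TF or HNF4A passed 0.238 TPM. The 10 markers summed to between 0.0452 and 0.319 TPM in a library. In the same libraries 83 of 86 cytosolic ribosomal protein genes were above 0 in every library, so the zeros are not spread over genes that every cell uses. The data thus go against the label in all 3 groups alike, and below the libraries are called by their group. Of 16 markers of other cell types, PTPRC, LYZ, COL1A2 and MYH7 were listed at 0 throughout, while COL3A1 was at 107 ± 7.2 TPM in control.

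Glycolysis splits glucose into pyruvate in the cytosol, and most steps are shared by isozymes that differ between tissues. Pyruvate is either reduced to lactate, which leaves the cell through monocarboxylate transporters, or enters the mitochondrion to be oxidised by pyruvate dehydrogenase, which the PDK kinases inhibit. Hepatocytes are known for their own set of isozymes, among them the transporter SLC2A2 and the pyruvate kinase PKLR, and for making glucose through PCK1, FBP1 and G6PC. Many glycolytic genes carry hypoxia response elements and are induced by the factors HIF1A and EPAS1.

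TPM (a length-normalised abundance) is a level per transcript length on a scale with the same total in every library, so levels can be compared between genes. Between 13057 and 13950 genes reached 1 TPM in a library, and the 37 members took 2.68% to 3.33% of the TPM. NFE2L1 itself rose from 83.3 ± 20.2 TPM in control to 247 ± 93.5 TPM with NFE2L1 and to 448 ± 22.9 TPM with NFE2L1DC (limma adjusted p = 0.00582 and 0.0014). Both lines were compared with the same control libraries. On the first principal component of all tested genes, control replicate 3 stood apart from control replicates 1 and 2. There it lay on the side of the overexpressing libraries. On the second component it stood apart from every other library, at -37.9 where the others lay between -3.64 and 10.9. Control replicate 3 also had the most genes above 1 TPM, and the calls of the members without it are given after the results.

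The most abundant members were isozymes found in most tissues. GAPDH, the dehydrogenase that yields the first NADH of the pathway, was the highest member in control at 13765 ± 1015 TPM (SD, n = 3). ENO1, the ubiquitous enolase, followed at 5193 ± 575 TPM, then PKM, the pyruvate kinase of most proliferating cells, at 2405 ± 265 TPM and TPI1 at 2152 ± 206 TPM. The spreads of PKM and TPI1 overlapped. Of the 37 members, 16 had a mean of at least 100 TPM over all libraries and 8 had a mean under 10 TPM.

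Among liver forms, SLC2A2, PKLR and G6PC were listed at 0 TPM in all 9 libraries, whereas PFKL, the liver-type phosphofructokinase, was at 164 ± 14.7 TPM in control. FBP1, the phosphatase that reverses the phosphofructokinase step, was listed at 0 in all 3 control libraries, at 0.168, 0.179 and 0 TPM in the NFE2L1 libraries, and at 0, 0 and 0.225 TPM in the NFE2L1DC libraries. FBP1 was the 1 member that did not pass the filter and was not tested. PCK2, the mitochondrial carboxykinase, was present at 54.1 ± 2.9 TPM in control, 51.4 ± 12.6 TPM with NFE2L1 and 47.1 ± 7.26 TPM with NFE2L1DC.

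**Figure D1:**
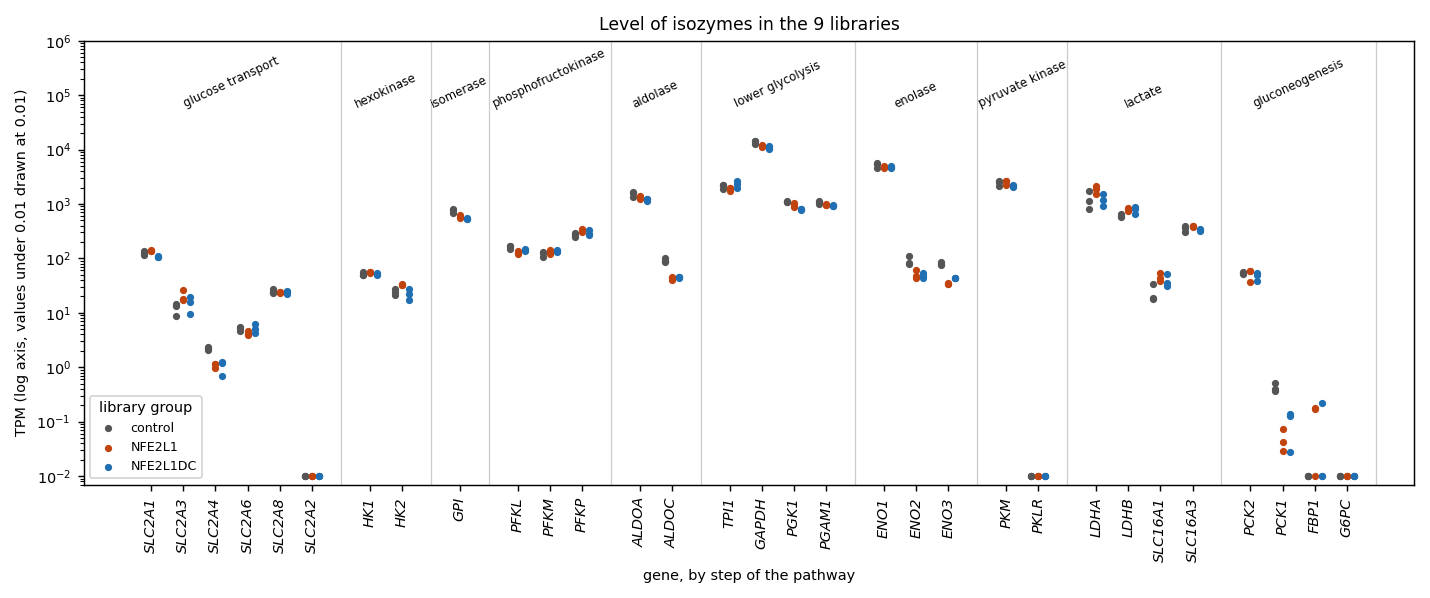
TPM of isozymes by step of the pathway on a log axis, 1 point per library in 3 groups, with values under 0.01 TPM drawn at 0.01. GAPDH lies highest, at 13765 TPM in control, SLC2A4 is near the filter of 1 TPM, and SLC2A2, PKLR and G6PC lie on the lower limit in every library.

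The NFE2L1 line was then compared with control. Of the 36 members tested, 8 fell and 3 rose at a limma adjusted p under 0.05. Over all 14118 genes tested 2.57% fell, 7.83% rose and 10.4% were called in either direction. Of the members, 22.2% fell and 8.33% rose, so that the share that rose was near that of all genes. Because the list was chosen with earlier results known, the larger share that fell describes the list and tests nothing. The members that fell were PFKFB4, ALDOC, ENO3, ENO2, GPI, PFKL, PDK2 and SLC2A4, and those that rose were SLC16A1, PFKFB2 and LDHB. The median log2 fold change of the 36 members was 0.00 beside 0.17 over all genes. Under median-of-ratios scaling, which moved the median of all genes to 0.02, the median of the members was -0.18. Then 557 of all genes rose and 464 fell, in place of 1105 and 363, and 2 members rose and 6 fell. At an unadjusted p under 0.05, 13 members were lower and 8 higher. Of the 14118 genes tested 1047 were lower and 3242 higher at that threshold, 30.4% in either direction. In 12 members every NFE2L1 library was below every control library, a pattern found in 9.53% of all genes, and in 7 every one was above, found in 22.6%.

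In the NFE2L1DC line 7 of the 36 members fell and none rose. Over all genes 1.54% fell, 2.06% rose and 3.61% were called in either direction, while 19.4% of the members fell. This share too is a description of a list chosen with earlier results known. At an unadjusted p under 0.05, 13 members were lower and 3 higher. Of the 14118 genes tested 1025 were lower and 2041 higher at that threshold, 21.7% in either direction. The members that fell were PFKFB4, ALDOC, ENO3, ENO2, GPI, PGK1 and GAPDH. The median of the 36 members was -0.13 beside 0.12 over all genes, and -0.24 beside 0.02 under median-of-ratios scaling. With that scaling 119 of all genes rose and 174 fell, in place of 291 and 218, and 5 members fell and none rose. Every NFE2L1DC library was below every control library in 13 members (8.98% of all genes) and above in 2 (13.7%). The first 5 genes fell in both lines. In bulk RNA, fewer cells with a transcript and less of it per cell cannot be told apart.

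**Figure D2:**
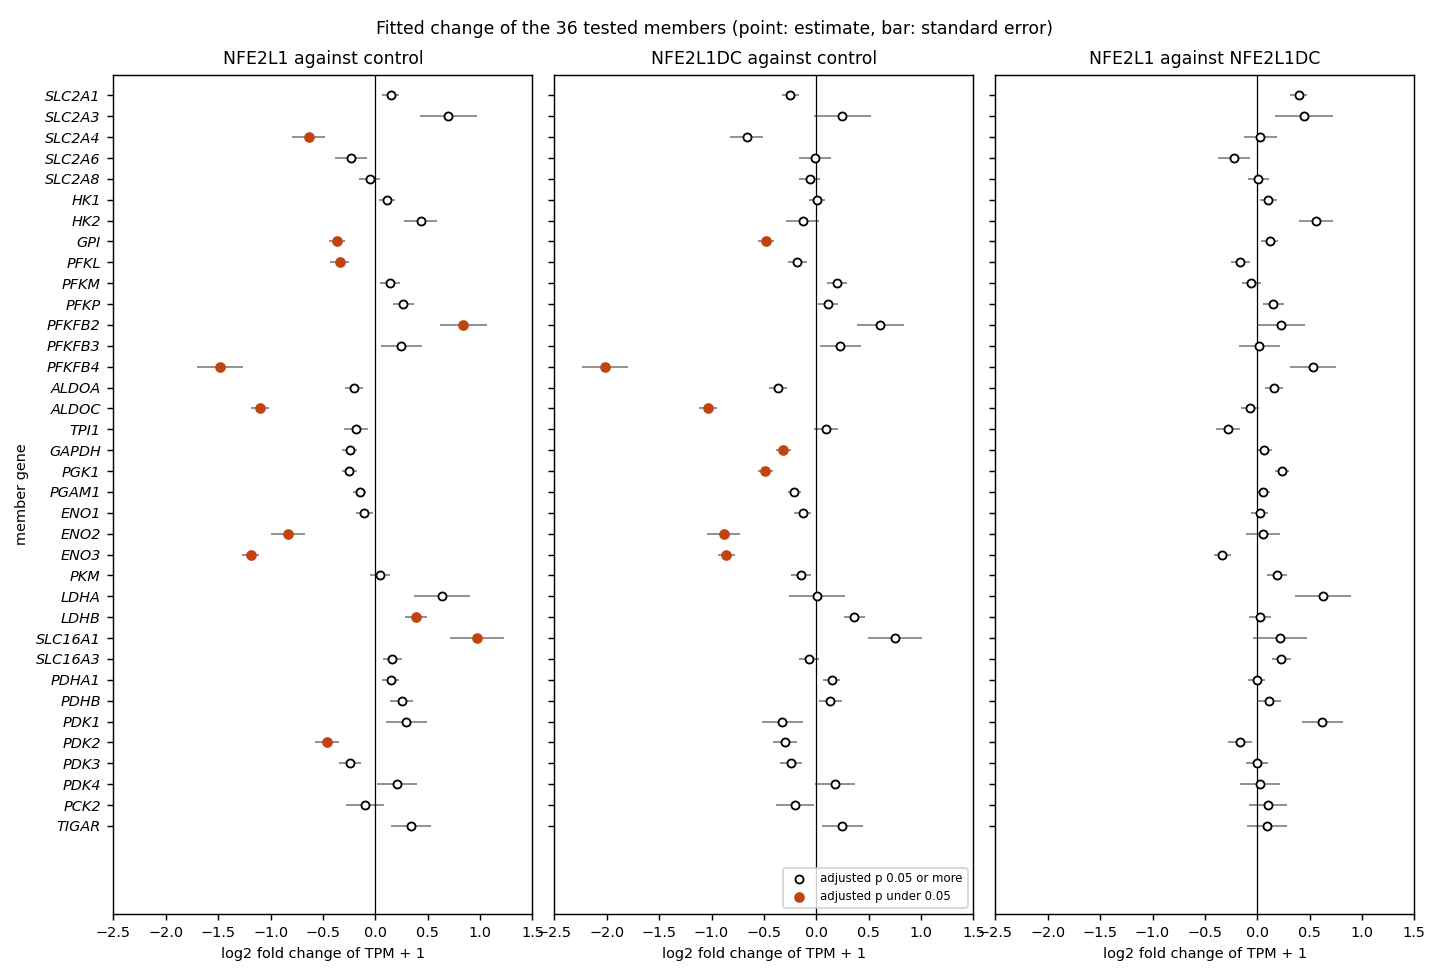
Fitted log2 fold change of TPM + 1 for the 36 tested members in 3 comparisons, with bars for the standard error and filled points for a limma adjusted p under 0.05. The filled points number 11 for NFE2L1 against control, 7 for NFE2L1DC against control and none between the overexpressing lines, and PFKFB4 lies farthest left against control.

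PFKFB4, a kinase and phosphatase that makes and breaks down fructose 2,6-bisphosphate, the activator of phosphofructokinase, had the largest fall of the members. PFKFB4 (ENSG00000114268, GRCh38 chromosome 3, 48517684 to 48562015, minus strand) stood at 15.9, 22.5 and 14.9 TPM in control replicates 1 to 3, at 4.53, 6.66 and 5.87 TPM with NFE2L1, and at 2.93, 4.9 and 3.1 TPM with NFE2L1DC. All 6 overexpressing libraries were below all 3 control libraries. PFKFB4 thus had a log2 fold change with NFE2L1 of -1.48, a fold of 0.32 (SE 0.22, limma adjusted p = 0.00421), and with NFE2L1DC of -2.02, a fold of 0.205. (SE 0.22, adjusted p = 0.00233) Its relative PFKFB3, the form with the strongest kinase activity, was at 14.8 ± 1.97 TPM in control, 17.9 ± 4.41 TPM with NFE2L1 and 17.5 ± 2.98 TPM with NFE2L1DC, and was called in neither line.

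PFKFB2, the heart-type form, rose in the NFE2L1 line. It stood at 5.37, 5.12 and 8.21 TPM in control, at 13.2, 11.02 and 11.1 TPM with NFE2L1 and at 13.5, 7.47 and 9.41 TPM with NFE2L1DC (chromosome 1, 207034366 to 207081024, plus strand). The NFE2L1 libraries did not overlap the control libraries, whereas NFE2L1DC replicate 2 lay below the highest control library. PFKFB2 thus had a log2 fold change with NFE2L1 of 0.84 (SE 0.23, limma adjusted p = 0.046), and with NFE2L1DC of 0.61 (SE 0.23, adjusted p = 0.162). YOD1 overlaps PFKFB2 on the opposite strand over 9132 bases. YOD1 was at 0.824, 1.46 and 1.37 TPM in the 3 groups and was called in neither line, and the part of shared reads was not tested. Within a library, where scaling cancels out, PFKFB4 made up 38.7% to 56.1% of the summed TPM of the 3 PFKFB genes in control, 14.5% to 18.7% with NFE2L1 and 8.09% to 18.5% with NFE2L1DC. These shares are descriptions and were not tested.

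ALDOC, the aldolase best known from brain, fell to under 50 TPM in every overexpressing library. Its 3 control libraries stood at 91.5, 101 and 87.8 TPM, the NFE2L1 libraries at 39.9, 44.0 and 45.0 TPM and the NFE2L1DC libraries at 45.3, 46.1 and 43.7 TPM (ENSG00000109107, chromosome 17, 28573115 to 28577264, minus strand). The spread within each group was small beside the gap between control and both lines. ALDOC thus had a log2 fold change with NFE2L1 of -1.10 (SE 0.09, limma adjusted p = 0.00012), and with NFE2L1DC of -1.04 (SE 0.09, adjusted p = 0.000557). The gene AC005726.2 shares 4150 bases with ALDOC on the same strand. AC005726.2 was at 2.88, 3.41 and 3.55 TPM in the 3 groups and was called in neither line, and the part of shared reads was not tested. ALDOA, the muscle and ubiquitous aldolase, was over 10 times more abundant, at 1532 ± 172 TPM in control, 1323 ± 64 TPM with NFE2L1 and 1186 ± 64.6 TPM with NFE2L1DC. ALDOA was not called in either line (adjusted p = 0.147 and 0.0543). The share of ALDOC in the summed TPM of both aldolases went from 5.16% to 6.12% over the control libraries to 3.08% to 3.28% with NFE2L1 and 3.43% to 3.91% with NFE2L1DC.

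Enolase, which makes phosphoenolpyruvate, has a ubiquitous form, ENO1, and the tissue forms ENO3 and ENO2, which both fell in both lines. ENO3, the muscle form (ENSG00000108515, chromosome 17, 4948092 to 4957131, plus strand), was at 86.4, 79.9 and 75.2 TPM in control, at 34.1, 34.0 and 36 TPM with NFE2L1 and at 44.2, 43.3 and 44.1 TPM with NFE2L1DC. The 3 groups did not overlap, with NFE2L1 lowest. ENO3 thus had a log2 fold change with NFE2L1 of -1.19 (SE 0.08, limma adjusted p = 5.47e-05), and with NFE2L1DC of -0.86 (SE 0.08, adjusted p = 0.00119). ENO3 overlaps the start of PFN1 on the opposite strand over 970 bases, and PFN1, at 2550, 2640 and 2630 TPM in the 3 groups, was not called. Because the strand setting is unknown, reads from the shared stretch cannot be told apart.

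ENO2, the neuronal form (chromosome 12, 6913745 to 6923698, plus strand), was at 111, 78.5 and 84.0 TPM in control, at 60.7, 48.1 and 43.4 TPM with NFE2L1 and at 43.9, 48.1 and 53.5 TPM with NFE2L1DC. Every overexpressing library was below every control library. ENO2 thus had a log2 fold change with NFE2L1 of -0.83 (SE 0.16, limma adjusted p = 0.0141), and with NFE2L1DC of -0.89 (SE 0.16, adjusted p = 0.0225). Its call held in 15 of the 17 alternative fits with NFE2L1 and in 11 with NFE2L1DC. The NFE2L1 call was lost without NFE2L1 replicate 2 or 3 (limma adjusted p at most 0.0586). The NFE2L1DC call was lost, among others, without control replicate 1 or any of the NFE2L1DC libraries (adjusted p at most 0.0883). ENO2 shares 499 bases with LRRC23 on the same strand, which was at 18, 13.5 and 15.5 TPM in the 3 groups and was not called, and its part in the result was not tested. ENO1 was at 4808 ± 140 TPM with NFE2L1 and 4727 ± 231 TPM with NFE2L1DC, with libraries that overlapped control, and was not called (adjusted p = 0.395 and 0.37).

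GPI, the isomerase between glucose 6-phosphate and fructose 6-phosphate (ENSG00000105220, chromosome 19, 34359480 to 34402413, plus strand), is the 1 gene lowered in both lines that has no alternative isozyme. It was at 782, 797 and 677 TPM in control, at 624, 568 and 557 TPM with NFE2L1 and at 524, 525 and 561 TPM with NFE2L1DC. All 6 overexpressing libraries were below the controls, by a smaller factor than for the genes above. GPI thus had a log2 fold change with NFE2L1 of -0.36 (SE 0.08, limma adjusted p = 0.0219), and with NFE2L1DC of -0.48 (SE 0.08, adjusted p = 0.0149). Its call held in 9 of the 17 alternative fits with NFE2L1 and in 11 with NFE2L1DC. Under median-of-ratios scaling it was called in neither line, and its call also ended without control replicate 1 or 2 in both. The call ended too without NFE2L1 replicate 2 or 3 in the NFE2L1 line, and without NFE2L1DC replicate 1 in the NFE2L1DC line.

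The promoters of these 5 genes are shown because they fell in both lines and because hypoxia response elements are known from glycolytic promoters. Each line gives the 250 bases before a RefSeq transcript start, 5′ to 3′ on the gene's strand, in GRCh38.p14. Capitals mark ACGTG or GCGTG, the cores of hypoxia response elements, on either strand, so that CACGT and CACGC in capitals are matches on the opposite strand. RefSeq gives ENO3 a pair of starts, and the start used in these cells was not measured.
PFKFB4, chr3:48556804-48557053, minus strand: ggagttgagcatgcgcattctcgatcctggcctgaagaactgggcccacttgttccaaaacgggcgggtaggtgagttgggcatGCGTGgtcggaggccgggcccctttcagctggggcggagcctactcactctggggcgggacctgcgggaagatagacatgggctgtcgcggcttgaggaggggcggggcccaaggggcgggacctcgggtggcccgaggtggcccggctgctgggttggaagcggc
ALDOC, chr17:28576896-28577145, minus strand: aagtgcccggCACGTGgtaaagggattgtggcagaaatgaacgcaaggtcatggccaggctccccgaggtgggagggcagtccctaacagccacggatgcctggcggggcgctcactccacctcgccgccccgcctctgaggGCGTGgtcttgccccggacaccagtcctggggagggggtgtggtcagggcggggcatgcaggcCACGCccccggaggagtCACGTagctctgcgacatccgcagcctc
ENO3 first start, chr17:4950302-4950551, plus strand: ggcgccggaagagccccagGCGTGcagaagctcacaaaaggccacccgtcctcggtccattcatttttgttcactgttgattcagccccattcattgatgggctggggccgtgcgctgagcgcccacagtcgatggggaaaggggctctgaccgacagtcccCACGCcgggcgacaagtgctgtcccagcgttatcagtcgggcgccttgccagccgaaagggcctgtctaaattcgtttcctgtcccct
ENO3 second start, chr17:4950869-4951118, plus strand: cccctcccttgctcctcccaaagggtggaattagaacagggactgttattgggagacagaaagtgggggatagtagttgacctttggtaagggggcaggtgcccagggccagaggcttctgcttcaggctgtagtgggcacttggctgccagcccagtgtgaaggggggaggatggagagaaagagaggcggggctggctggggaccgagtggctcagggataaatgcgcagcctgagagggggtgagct
ENO2, chr12:6914330-6914579, plus strand: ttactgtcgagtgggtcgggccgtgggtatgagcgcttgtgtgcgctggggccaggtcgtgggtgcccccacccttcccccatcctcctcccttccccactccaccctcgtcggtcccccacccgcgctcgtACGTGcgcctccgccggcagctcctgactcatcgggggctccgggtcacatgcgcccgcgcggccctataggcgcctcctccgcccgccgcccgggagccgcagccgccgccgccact
GPI, chr19:34364742-34364991, plus strand: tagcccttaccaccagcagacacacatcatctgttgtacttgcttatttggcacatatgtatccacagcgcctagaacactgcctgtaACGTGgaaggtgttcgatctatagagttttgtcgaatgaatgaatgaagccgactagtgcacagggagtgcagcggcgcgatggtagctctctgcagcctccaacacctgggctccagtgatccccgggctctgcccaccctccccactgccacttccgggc

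ACGTG occurred in the windows of ALDOC, ENO2 and GPI, and GCGTG in those of PFKFB4, ALDOC and the first start of ENO3. Over all 35116 RefSeq windows of the same length 18.5% held ACGTG and 32.2% held GCGTG, on either strand, and 21 of the 62 windows of members held each. ALDOC held 3 matches to ACGTG, of which a pair forms the palindrome CACGTG, the E-box, found in 6.34% of all windows. The E-box was in 8 of the 62 windows of members. TGANNNNGC, the core of elements bound by cap'n'collar factors with small MAF proteins, occurred in the windows of PFKFB4, ALDOC and the first start of ENO3, and in 35.2% of all windows. Of the 62 windows of members 17 held TGANNNNGC. The GC box GGGCGG occurred 5 times in the PFKFB4 window, 2 times each in ALDOC and ENO2, and in 42.6% of all windows. It was in 41 of the 62 windows of members. These letter matches describe the windows, and binding was not measured.

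**Figure D3:**
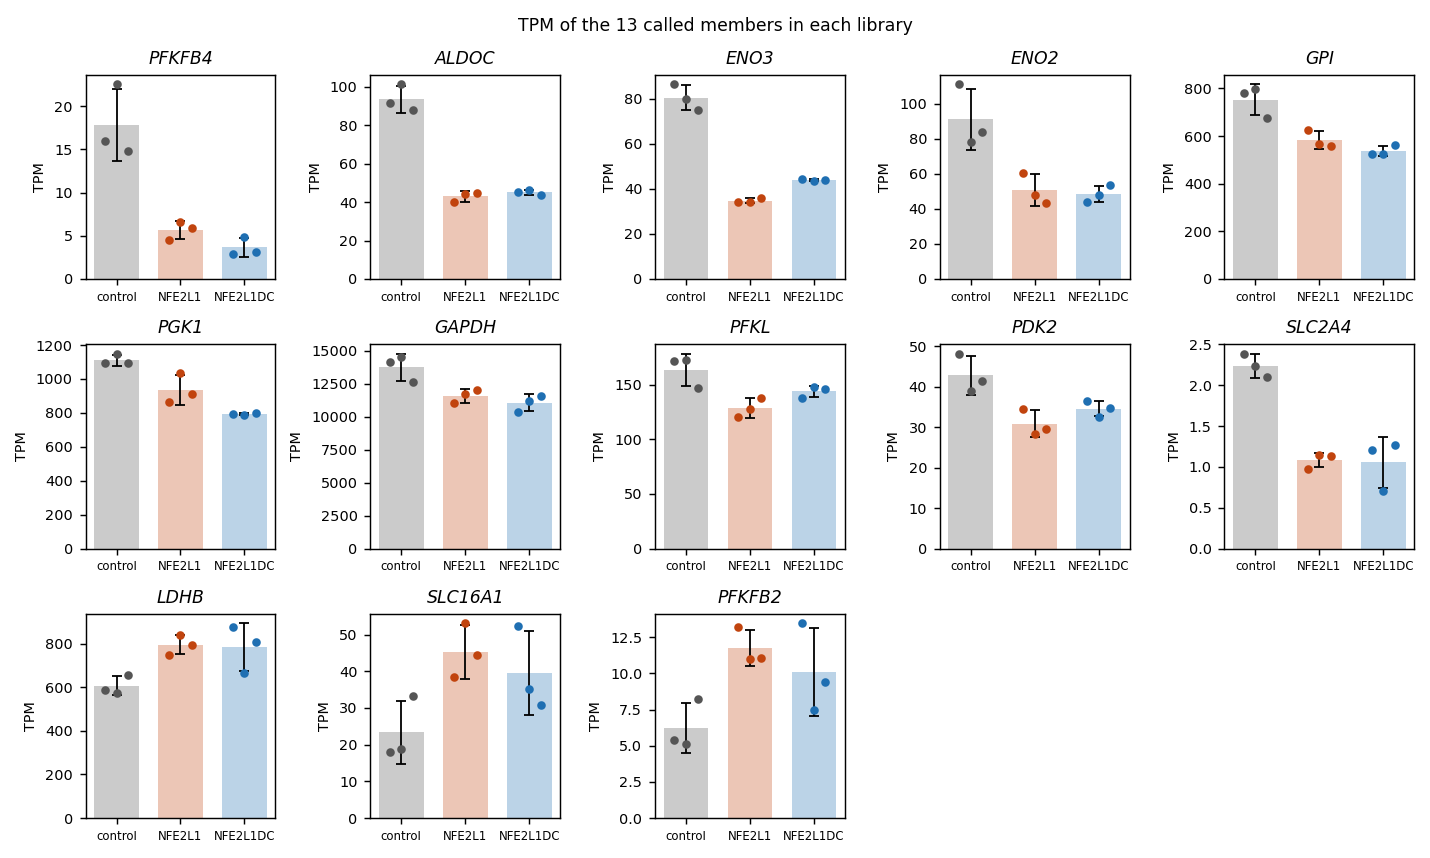
TPM of the 13 members called in at least 1 comparison with control, with points for libraries, bars for group means and error bars for SD (n = 3), on axes that start at 0. PFKFB4, ALDOC, ENO3, ENO2, GPI, PGK1, GAPDH, PDK2 and SLC2A4 were lower in all 6 overexpressing libraries than in any control library. SLC16A1 and PFKFB2 varied widely with NFE2L1DC.

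PGK1 and GAPDH, the neighbouring steps that make the first ATP and NADH, fell in the NFE2L1DC line. PGK1 (chromosome X, 77910739 to 78129296, plus strand) was at 1093, 1148 and 1091 TPM in control, at 865, 1034 and 911 TPM with NFE2L1 and at 794, 786 and 797 TPM with NFE2L1DC. The NFE2L1DC libraries lay close together below all others. PGK1 thus had a log2 fold change with NFE2L1DC of -0.49 (SE 0.07, limma adjusted p = 0.00843), and with NFE2L1 of -0.25 (SE 0.07, adjusted p = 0.053). GAPDH (chromosome 12, 6533927 to 6538374, plus strand), which is widely used as a reference gene, was at 14129.5, 14547.1 and 12617.7 TPM in control, at 11014.9, 11753.6 and 12011.7 TPM with NFE2L1 and at 10378.9, 11224.6 and 11605.5 TPM with NFE2L1DC. All 6 overexpressing libraries were below control. GAPDH thus had a log2 fold change with NFE2L1DC of -0.31 (SE 0.07, limma adjusted p = 0.045), and with NFE2L1 of -0.25 (SE 0.07, adjusted p = 0.0551). The GAPDH call held in 4 of the 17 alternative fits. It was lost, among others, when any library other than control replicate 3 was left out and under median-of-ratios scaling. The antisense gene AC006064.4 overlaps GAPDH over 577 bases and was at 610, 449 and 387 TPM in the 3 groups. PGAM4 lies within PGK1 on the opposite strand and was at 55.3, 46.9 and 36.8 TPM. PGAM4 was itself called lower with NFE2L1DC (log2 fold change -0.57, limma adjusted p = 0.0274). The part of such shared reads was not tested. The 62 named pseudogenes of GAPDH summed to 0.134% of its level.

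Other enzymes of the lower pathway were not called. PGAM1, the mutase, was at 1082 ± 69.8, 974 ± 29 and 935 ± 28 TPM in the order control, NFE2L1, NFE2L1DC. TPI1 was at 1886 ± 118 TPM with NFE2L1 and 2299 ± 341 TPM with NFE2L1DC, on either side of its control mean. PKM was at 2477 ± 245 TPM with NFE2L1 and 2163 ± 84.7 TPM with NFE2L1DC, and both groups overlapped control.

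Among the phosphofructokinases, which commit sugar to glycolysis, PFKL fell in the NFE2L1 line. This liver-type subunit (chromosome 21, 44300051 to 44327376, plus strand) was at 171, 173 and 147 TPM in control, at 120, 128 and 138 TPM with NFE2L1 and at 138, 148 and 146 TPM with NFE2L1DC. Only the NFE2L1 libraries were all below control. PFKL thus had a log2 fold change with NFE2L1 of -0.34 (SE 0.09, limma adjusted p = 0.0398), and with NFE2L1DC of -0.18 (SE 0.09, adjusted p = 0.264). The call held in 3 of the 17 alternative fits, and of the fits that leave out 1 library only in that without control replicate 3. PFKP, the platelet-type subunit and the most abundant of the 3, was at 272 ± 20.2, 327 ± 20.2 and 295 ± 36.5 TPM and PFKM at 120 ± 11.4, 133 ± 11.4 and 138 ± 5.34 TPM, neither of them called. The share of PFKL in their summed TPM was 28.1% to 30.3% in control, 21.2% to 22.9% with NFE2L1 and 23.3% to 26.5% with NFE2L1DC.

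**Figure D4:**
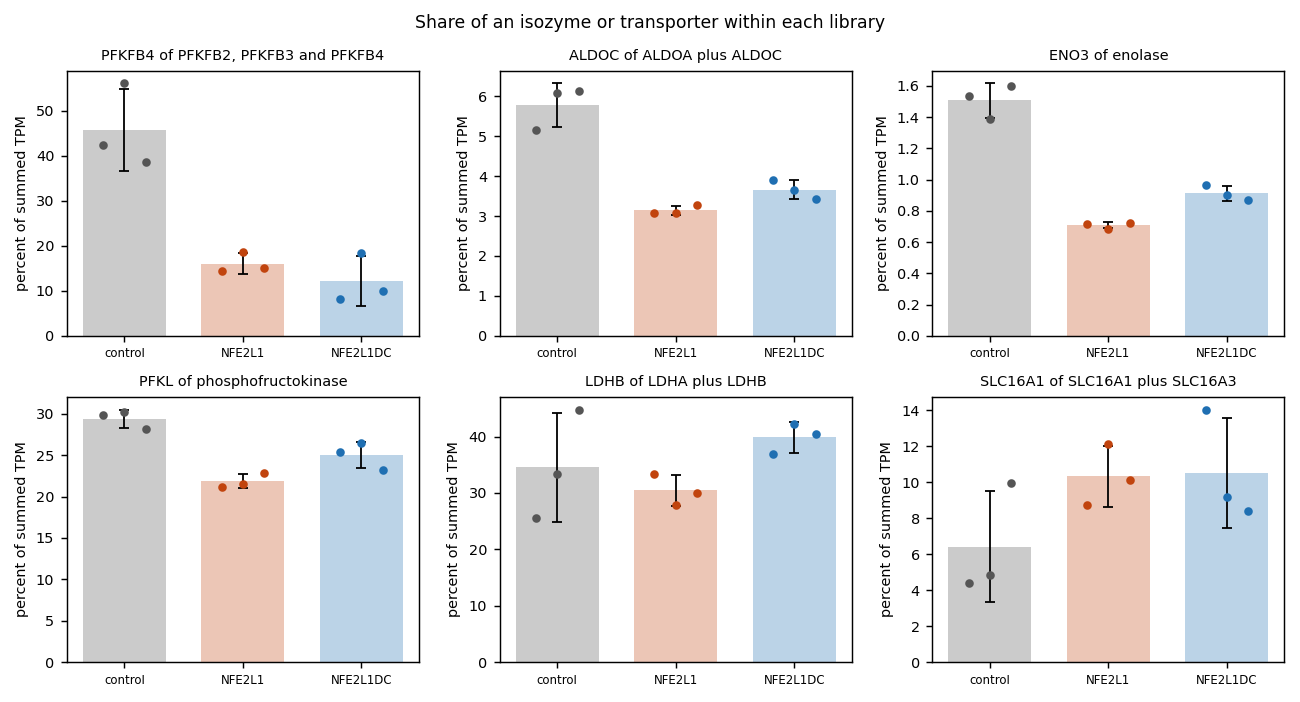
Share of an isozyme or transporter in the summed TPM of its family, in percent, with points for libraries, bars for means and error bars for SD (n = 3). The shares of PFKFB4, ALDOC, ENO3 and PFKL were lower in all 6 overexpressing libraries than in control, whereas those of LDHB and SLC16A1 overlapped control.

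Glucose uptake genes gave a single call. SLC2A4, the insulin-responsive transporter of muscle and fat (chromosome 17, 7281667 to 7288257, plus strand), was at 2.38, 2.23 and 2.09 TPM in control, at 0.979, 1.14 and 1.13 TPM with NFE2L1 and at 1.2, 0.699 and 1.27 TPM with NFE2L1DC. All overexpressing libraries were below control, at levels near the filter. SLC2A4 thus had a log2 fold change with NFE2L1 of -0.63 (SE 0.16, limma adjusted p = 0.0353), and with NFE2L1DC of -0.66 (SE 0.16, adjusted p = 0.0537), on a scale that understates changes this close to 1 TPM. The call held in 7 of the 16 alternative fits that tested it, and was lost without control replicate 1 or 2 or any 1 of the NFE2L1 libraries, with a pseudocount of 0.1 and without the filter. SLC2A1, the main transporter of these cells, made up 68.9% to 75.8% of the summed TPM of the 5 transporters and was at 126 ± 12.1, 140 ± 3.15 and 106 ± 2.01 TPM. SLC2A3, a high-affinity transporter, was at 12.1 ± 2.84, 20.2 ± 4.97 and 14.9 ± 5.12 TPM. SLC2A8 stayed between 22.2 and 27.7 TPM and SLC2A6 between 3.93 and 6.12 TPM over the 9 libraries.

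Hexokinases trap glucose in the cell. HK1 was at 51.6 ± 3.59, 55.7 ± 0.849 and 51.8 ± 1.55 TPM in the order control, NFE2L1, NFE2L1DC. HK2, the inducible form, was at 20.8, 24.6 and 27.5 TPM in control, at 33.6, 32.5 and 32.6 TPM with NFE2L1 and at 27.2, 22.2 and 17.6 TPM with NFE2L1DC. The NFE2L1 libraries were above all others, yet the adjusted p was 0.106 against control and 0.269 against NFE2L1DC.

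On the lactate side, LDHB and SLC16A1 rose in the NFE2L1 line. LDHB, the subunit that favours lactate oxidation (chromosome 12, 21635342 to 21757857, minus strand), was at 589, 574 and 656 TPM in control, at 750, 838 and 795 TPM with NFE2L1 and at 879, 665 and 809 TPM with NFE2L1DC. Both overexpressing groups lay above control. LDHB thus had a log2 fold change with NFE2L1 of 0.39 (SE 0.10, limma adjusted p = 0.0445), and with NFE2L1DC of 0.36 (SE 0.10, adjusted p = 0.0893). LDHA, the subunit that favours lactate formation, varied widely within groups, at 1719, 1150 and 809 TPM in control, 1498, 2162 and 1851 TPM with NFE2L1 and 1501, 907 and 1194 TPM with NFE2L1DC. It was called in neither line (adjusted p = 0.151 and 0.987).

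SLC16A1, which encodes the lactate transporter MCT1 (chromosome 1, 112911847 to 112957013, minus strand), was at 17.9, 18.9 and 33.3 TPM in control, at 38.4, 53.1 and 44.4 TPM with NFE2L1 and at 52.4, 35.2 and 30.7 TPM with NFE2L1DC. Control replicate 3 was far above the other controls and overlapped the NFE2L1DC group. SLC16A1 thus had a log2 fold change with NFE2L1 of 0.97 (SE 0.26, limma adjusted p = 0.046), and with NFE2L1DC of 0.75 (SE 0.26, adjusted p = 0.142). Without control replicate 3 it was 1.24 with NFE2L1 (adjusted p = 0.00387). The antisense gene SLC16A1-AS1 overlaps SLC16A1 over 599 bases and was at 2.73, 4.18 and 4.27 TPM in the 3 groups, with no call. SLC16A3, which encodes the exporter MCT4, was at 353 ± 46.1, 393 ± 7.97 and 335 ± 14 TPM and was not called. The 3 members that rose had a GC content of 43.5% to 46.5% in their longest transcript, while the 8 that fell with NFE2L1 had 53.1% to 64.1%. With GC content and length corrected for, 5 members rose and 7 fell with NFE2L1.

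The calls of LDHB, SLC16A1 and PFKFB2 in the NFE2L1 line held in 7, 6 and 7 of the 17 alternative fits. Each was lost when control replicate 1 or 2, any NFE2L1 library, or NFE2L1DC replicate 3 was left out. SLC16A1 was also lost without NFE2L1DC replicate 2, and LDHB under median-of-ratios scaling. Calls over all genes fell too: 1105 genes rose as reported, and 472 and 384 without control replicate 1 or 2. Without an NFE2L1 library 397 to 417 rose, and without NFE2L1DC replicate 3, 783. The log2 fold change of LDHB lay between 0.21 and 0.45 over the 17 fits. It lay between 0.80 and 1.24 for SLC16A1 and between 0.68 and 1.03 for PFKFB2. Without control replicate 3, PFKFB2 had a log2 fold change of 1.03 (limma adjusted p = 0.0072) and LDHB of 0.45 (adjusted p = 0.0152).

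At the branch to mitochondrial oxidation, PDK2 fell in the NFE2L1 line. PDK2, a kinase that inhibits pyruvate dehydrogenase (chromosome 17, 50094737 to 50112152, plus strand), was at 48.1, 38.9 and 41.4 TPM in control, at 34.6, 28.4 and 29.6 TPM with NFE2L1 and at 36.5, 32.6 and 34.6 TPM with NFE2L1DC. All 6 overexpressing libraries were below control. PDK2 thus had a log2 fold change with NFE2L1 of -0.46 (SE 0.11, limma adjusted p = 0.0361), and with NFE2L1DC of -0.30 (SE 0.11, adjusted p = 0.176). The call held in 8 of the 17 alternative fits, and was lost after the correction for GC content, among others. Leaving out control replicate 1 or 2, NFE2L1 replicate 2 or 3, or NFE2L1DC replicate 3 also ended it. PDK3 was at 19.5 ± 0.746, 16.4 ± 0.947 and 16.4 ± 1.29 TPM, PDK1, a known hypoxia-induced form, between 5.55 and 13.3 TPM, and PDK4 between 2.14 and 3.76 TPM, with no call. The enzyme's own subunits PDHA1, at 179 ± 17.8, 198 ± 5.14 and 199 ± 9 TPM, and PDHB, at 52.8 ± 6.29, 62.7 ± 1.32 and 58.0 ± 6.67 TPM, were not called either. TIGAR, a phosphatase that steers sugar away from glycolysis, was between 6.16 and 11.8 TPM over the 9 libraries.

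The overexpressing lines were then compared with each other. NFE2L1 itself was at 207, 181 and 354 TPM with NFE2L1 and at 445, 427 and 472 TPM with NFE2L1DC, without overlap. The protein form and the level of its RNA thus cannot be told apart in this comparison. None of the 36 members passed limma's adjusted p of 0.05, where 0.715% of all genes were higher and 0.0779% lower in NFE2L1, 0.793% in all, and none passed in limma without the abundance trend. At an unadjusted p under 0.05, 9 members differed, 7 higher and 2 lower in NFE2L1. Of the 14118 genes tested 819 were higher and 337 lower at that threshold, 8.19% in all. SLC2A1 had the smallest p. It was at 138, 139 and 144 TPM with NFE2L1 and at 105, 105 and 108 TPM with NFE2L1DC, with control at 128, 138 and 114 TPM between and overlapping the former. Its log2 fold change was 0.39 (SE 0.08, adjusted p = 0.0836), and it passed the test after the correction for GC content, in the fit of these groups alone and without control replicate 3. ENO3 had a difference of -0.33 on the log2 scale (SE 0.08, adjusted p = 0.182) and PGK1 one of 0.24 (SE 0.07, adjusted p = 0.306), both without overlap between the lines. A p that misses the threshold does not show that the lines are alike.

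Leaving out any 1 library changed the number of members called against control, and the total rose only without control replicate 3. Without it, 13 members fell and 7 rose with NFE2L1, and 13 fell and 4 rose with NFE2L1DC, while over all genes 803 fell and 4252 rose with NFE2L1, and 613 fell and 2831 rose with NFE2L1DC. The members then added were ALDOA, ENO1, GAPDH, PGAM1 and PGK1 on the lower side and HK2, PDHA1, PDHB and TIGAR on the higher side with NFE2L1. With NFE2L1DC they were ALDOA, ENO1, PFKL, PGAM1, SLC2A1 and SLC2A4 on the lower and LDHB, PDHA1, PFKFB2 and SLC16A1 on the higher side. PFKFB4, ALDOC and ENO3 in both lines, and PGK1 in the NFE2L1DC line, were called in all 17 alternative fits. Their log2 fold changes over those fits lay between -1.64 and -1.31, -1.28 and -0.99, and -1.37 and -1.06 with NFE2L1, and between -2.27 and -1.84, -1.15 and -0.96, and -0.97 and -0.76 with NFE2L1DC, and those of PGK1 with NFE2L1DC between -0.60 and -0.46.

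**Figure D5:**
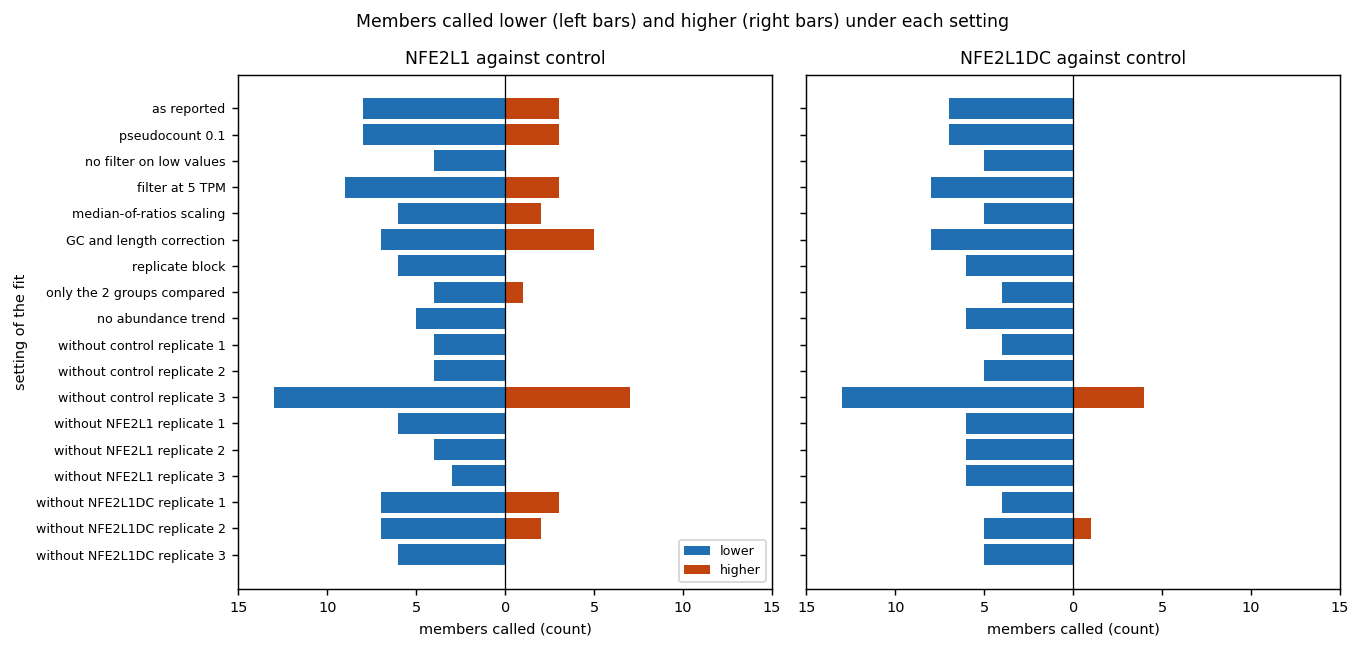
Number of members called lower (bars to the left) and higher (bars to the right) at a limma adjusted p under 0.05 under each setting, for both comparisons with control. The count as reported is 8 lower and 3 higher with NFE2L1 and 7 lower and 0 higher with NFE2L1DC, and the longest bars, 13 lower in each comparison, are those without control replicate 3.

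Neighbouring pathways are read against the share of all genes called, 10.4% with NFE2L1 and 3.61% with NFE2L1DC. Of 43 other genes of glucose and pyruvate metabolism 20 passed the filter. With NFE2L1 the test called 1 of the 20, the monocarboxylate transporter SLC16A7, at 0.519 ± 0.258 TPM in control and 1.48 ± 0.458 TPM with NFE2L1. It passed the filter through the NFE2L1 libraries, where it was high, and its call supports nothing. With NFE2L1DC 1 of the 20 was called, PGAM5, a mitochondrial phosphatase, which rose (106 ± 5.77 to 136 ± 3.4 TPM, adjusted p = 0.0263). None of the 20 fell in either line.

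Of the 7 pentose phosphate genes 2 were called with NFE2L1 and 1 with NFE2L1DC. RPIA, the isomerase that makes ribose 5-phosphate, rose from 14.9 ± 1.33 to 23.4 ± 1.3 TPM with NFE2L1 and 20.8 ± 0.66 TPM with NFE2L1DC (adjusted p = 0.00814 and 0.0491). TKT, transketolase, fell with NFE2L1 from 1427 ± 114 to 1167 ± 11.3 TPM (adjusted p = 0.0284). No other member of that list was called. Of 16 citrate cycle genes SDHC, a membrane subunit of succinate dehydrogenase, was the 1 call, rising with NFE2L1 from 69.0 ± 14.5 to 147 ± 11.4 TPM (adjusted p = 0.0125). SDHC was at 130 ± 33.5 TPM with NFE2L1DC, also above control in every library (limma adjusted p = 0.0507). Of 11 glycogen genes tested PYGL, the liver phosphorylase, was the 1 call, rising with NFE2L1 from 155 ± 22.9 to 225 ± 9.66 TPM (adjusted p = 0.0255).

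Among 17 tested factors that act on glucose genes or sense oxygen, EPAS1, which encodes HIF-2 alpha, rose with NFE2L1 from 20.1 ± 2.37 to 47.4 ± 8.07 TPM (adjusted p = 0.0219). With NFE2L1DC EPAS1 was at 42.7 ± 15.3 TPM (adjusted p = 0.0683). HIF1A was at 9.07, 9.54 and 27.1 TPM in control and was called in neither line. EGLN3, an oxygen-sensing hydroxylase that hypoxia induces, fell with NFE2L1DC from 13.2 ± 2.17 to 6.44 ± 0.327 TPM (adjusted p = 0.00915). It was at 9.87 ± 0.286 TPM with NFE2L1, also below control in every library (limma adjusted p = 0.101). TXNIP, a glucose-induced inhibitor of glucose uptake, fell with NFE2L1DC from 134 ± 25.3 to 67.3 ± 2.68 TPM (adjusted p = 0.00766). Its NFE2L1 libraries were also all below control, at 94.5 ± 8.91 TPM (limma adjusted p = 0.0533). Of these calls outside the members, RPIA with NFE2L1 and TXNIP with NFE2L1DC held in all 17 alternative fits. SDHC lost its call without NFE2L1 replicate 2 and EGLN3 without NFE2L1DC replicate 3. TKT and PYGL lost theirs without control replicate 1 or 2 or any NFE2L1 library, and EPAS1 without control replicate 1 or 2 or NFE2L1 replicate 2 or 3. RPIA with NFE2L1DC and PGAM5 lost theirs without control replicate 2 or any overexpressing library, and RPIA also without control replicate 1. TKT and PYGL with NFE2L1, and RPIA and PGAM5 with NFE2L1DC, also lost their calls under median-of-ratios scaling. These calls held in 7, 10, 5 and 6 of the 17 alternative fits, in that order.

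Markers of other cell types also moved: of 7 tested, COL3A1 and ACTA2 fell in both lines, PDGFRB fell with NFE2L1 and CD68 rose with NFE2L1, against control and against NFE2L1DC. The call of CD68 between the lines held in 3 of 17 alternative fits, that of ACTA2 with NFE2L1DC in 5 and that of PDGFRB in 7. The 16 markers summed to 171 to 196 TPM in control, 144 to 159 TPM with NFE2L1 and 131 to 144 TPM with NFE2L1DC, and their part in the changes of the glycolytic genes was not tested.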

How the data were processed

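The authors deposited 1 table of TPM (transcript abundance normalised for length and library total) for 58174 genes in 9 libraries, 1 column each. Per the submitters' processing notes, CASAVA and the GRCh38 build were used. The aligner, quantifier, annotation and strand setting were not stated there, in the labels or in the file header. The table holds no counts, so the depth is unknown and no counting interval can be given. Genes at 1 TPM or more in at least 3 libraries (14118) were fitted as log2(TPM + 1) with limma-trend (limma 3.58.1, R 4.3.3), with 1 mean per group over all 9 libraries. Contrasts were tested 2-sided with Benjamini-Hochberg adjustment over all genes tested. Errors of TPM are SD (n = 3), those of log2 fold changes are standard errors, and folds are ratios of mean TPM. Whether replicates came from separate cultures is not stated, and the p-values cover the spread among these libraries alone, which may be technical. Coordinates are from GENCODE 29, which matched 57836 identifiers. Promoter windows are from RefSeq (GRCh38.p14) and matched 33 of 37 members by symbol. The members and lists were chosen with earlier results of these data known. Every called member is given in all libraries, and of each other list up to 4 called genes are named. Alternatives were another pseudocount, other filters, median-of-ratios scaling, a correction for GC content and length, a replicate block, fits on the groups compared alone, no abundance trend, and leaving out each library. Some genes of the lists are not reported here. The procedure was tested on simulated data.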

Additional observations from a re-analysis of the deposited data

How the results depend on the processing

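The number of members called changed with the setting, while no called member changed sign in any of the 17 alternative fits. With NFE2L1 against control, 3 members rose as reported, but 0 without the filter, 5 with GC content and length corrected for, 0 with the replicate block, 1 in the fit of the groups compared alone and 0 without the abundance trend. On the lower side, 8 fell as reported, and 4 without the filter, 4 in the fit of the groups compared alone and 5 without the trend. With NFE2L1DC against control, 7 fell as reported and 4 in the fit of the groups compared alone. Between the lines 0 members were higher as reported and 1 with that correction and 1 in the fit of these groups alone. Counts over all genes moved as well. With NFE2L1, 1105 rose and 363 fell as reported, 686 and 261 without the filter, 1461 and 263 with GC content and length corrected for, 646 and 226 with the replicate block, 620 and 228 in the fit of the groups compared alone, and 850 and 300 without the trend. With NFE2L1DC, 291 rose and 218 fell as reported, 468 and 179 with GC content and length corrected for, and 57 and 44 in the fit of the groups compared alone. Leaving out 1 library gave 0 to 7 higher and 3 to 13 lower with NFE2L1, 0 to 4 higher and 4 to 13 lower with NFE2L1DC, and 0 to 1 higher between the lines. With the replicate block 6 members fell in each line, and the calls of LDHB, SLC16A1, PFKFB2, SLC2A4 and PFKL with NFE2L1 and of GAPDH with NFE2L1DC were lost. Same-numbered libraries of different groups had correlations of deviations between -0.189 and 0.109, so the numbers were not taken as pairs. Of 18 called member results, 7 kept their call in every alternative that tested them. Uncalled members changed the sign of a fitted change in 62 of 1525 fits, in none of them with a call. Depth is unknown, so what it limits could not be assessed, and members near 1 TPM such as SLC2A4 carry the least certain values.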

Other observations

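A liver gene of glucose production that missed the filter still held low values, given here without a test and chosen after they were seen. PCK1, the cytosolic carboxykinase, was at 0.519, 0.37 and 0.396 TPM in control, at 0.0737, 0.0289 and 0.0429 TPM with NFE2L1 and at 0.137, 0.125 and 0.0281 TPM with NFE2L1DC, so that no overexpressing library reached the lowest control. The 37 members together summed to 33326, 33179 and 28519 TPM in control replicates 1 to 3, to between 27797 and 29767 TPM with NFE2L1 and to between 26756 and 28657 TPM with NFE2L1DC. Control replicate 3 thus lay within the range of the overexpressing libraries, and control replicates 1 and 2 above it.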
